A study of Bos taurus with 12 samples.

Results

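The high and the medium methylated eluates of tender beef were compared region by region, using the 2 libraries of the high eluate (HTE_1 and HTE_2) and the 2 of the medium eluate (MTE_1 and MTE_2). Peaks of these 4 libraries on chromosomes 1 to 29 that shared at least 1 bp were joined, which gave 45968 regions; joining all 12 libraries of the series in the same way gave 74459. A region with a peak in both HTE and in neither MTE library was called high-only, a region with a peak in both MTE and in neither HTE library medium-only, and the remaining regions held peaks in all 4 libraries or in some other mixture. There were 316 high-only regions, 11715 medium-only regions, 8160 regions of all 4 libraries and 25777 mixed regions.

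The DNA came from longissimus muscle of yearling Angus steers of a single inbred herd, which the labels name longissimus dorsi and the study's methods longissimus lumborum. Tender beef was the group with the lowest Warner-Bratzler shear force, the force needed to cut cooked meat, and tough beef the group with the greatest. Each beef was represented by 2 animals, and the labels name no treatment. Each capture was eluted in 3 steps into parts called high, medium and low methylated, which makes 6 conditions of 2 libraries (HTE, MTE and LTE from tender beef, HTO, MTO and LTO from tough beef). The sources give opposite salt strengths for the eluate called high, so the eluates are named here by their labelled methylation level only. Muscle holds fibre nuclei together with those of connective tissue, fat, vessel and immune cells, and peaks of whole tissue cannot tell them apart.

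DNA methylation in mammals is a methyl group on the cytosine of a CpG. In MBD-seq, sheared DNA is captured by a methyl-CpG binding domain, and fragments with more methylated CpGs are held more tightly, so stepwise elution sorts fragments by the number of methylated CpGs they carry. Most of a mammalian genome is poor in CpG and methylated, whereas CpG-rich stretches are short, and repeats hold a large part of the methylated CpGs. A peak is a stretch where captured fragments pile up over the local background.

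The medium libraries held more and narrower peaks than the high libraries. HTE_1 and HTE_2 had 11057 and 12784 peaks on chromosomes 1 to 29, and MTE_1 and MTE_2 had 33562 and 35688. The medium eluate thus had 2.91-fold more peaks (11920.5 ± 1221 against 34625 ± 1503, SD, n = 2 each), and the eluates did not overlap. An exact permutation test of 2 against 2 libraries cannot go below the two-sided p = 0.333 that was found. With the tough libraries added, the ratio was 2.54-fold over 4 libraries of each eluate (two-sided exact permutation p = 0.0286, the smallest possible, adjusted p = 0.0357 over 5 such measures). The 2 eluates of an animal are not independent of each other, which this test does not use.

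Depth moved with the eluate. After duplicate removal 4526538 and 4843388 tags were left in HTE_1 and HTE_2, against 6589423 and 6886676 in MTE_1 and MTE_2. Per 1000000 of these tags the libraries had 2443, 2639, 5093 and 5182 peaks, so the difference was smaller but of the same direction. Peaks covered 3.66 and 4.49 Mb in the high and 8.88 and 8.90 Mb in the medium libraries. The part of depth in the classes below was not tested otherwise than by taking equal numbers of peaks.

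Median peak width was 263 and 282 bp in HTE_1 and HTE_2 and 214 and 200.5 bp in MTE_1 and MTE_2. The peak caller lets no peak be narrower than the fragment length it estimated for a library, which was 179, 196, 157 and 146 bp, so this length moved with the eluate as well. Above that minimum the median peak extended 84 and 86 bp in the high and 57 and 54.5 bp in the medium libraries, and 8.70% and 9.03% against 14.9% and 14.5% of peaks had the minimum width. The excess width was 85 ± 1.41 bp against 55.8 ± 1.77 bp (SD, n = 2 each, exact permutation p = 0.333), and over the 4 libraries of each eluate it was 81.2 against 61.9 bp (exact permutation p = 0.0286, adjusted p = 0.0357). When the 11057 peaks of highest −log10 p were taken from each library, the difference in median width was lost (log2 medium over high 0.025, against -0.39 with all peaks; exact permutation p = 1).

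Of the 45968 regions, 316 were high-only (0.687%, Wilson 95% interval 0.616 to 0.767%), 11715 were medium-only (25.5%, 25.1 to 25.9%) and 8160 were found in all 4 libraries (17.8%, 17.4 to 18.1%). All intervals for shares in this text are Wilson intervals at the 95% level and cover counting error only. There were 37.1 medium-only regions for each high-only region. Regions of a single library made up 45.4% of the total (20855 regions), and nearly all of these were medium peaks (9267 of MTE_1 and 10752 of MTE_2, against 290 and 546 of HTE_1 and HTE_2). The 4 patterns that pair 1 high with 1 medium library, and that no eluate defines, held 105 to 423 regions each. The 316 high-only regions lay within this range and the 11715 medium-only regions far above it. Each of these patterns draws on a medium list, which held more peaks than either high list. The range is therefore no chance level for either class. Where 3 libraries held a peak, the missing library was a high library in 3223 regions and a medium library in 662.

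**Figure D1:**
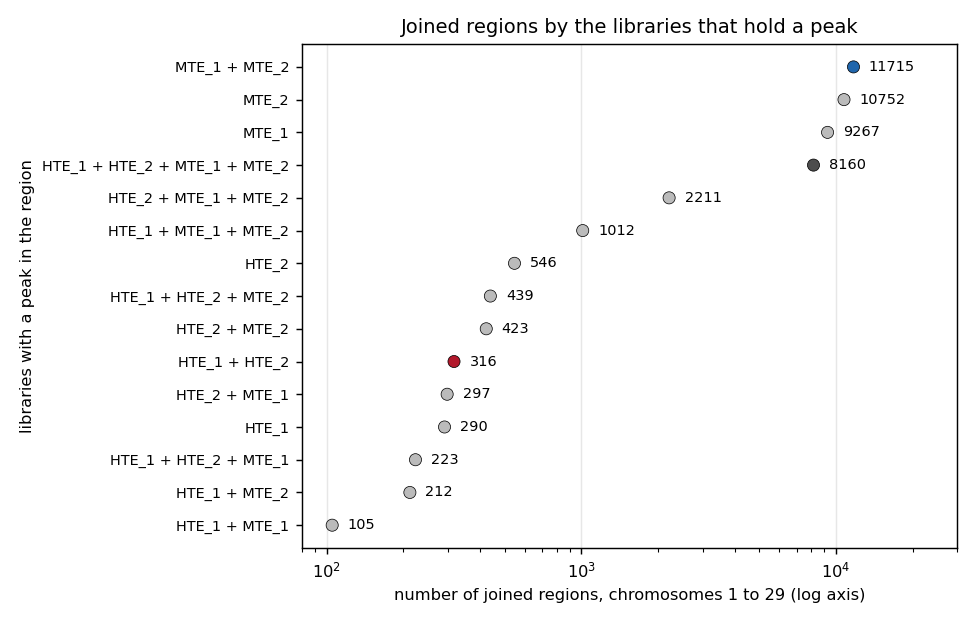
Number of joined regions (log axis) for each of the 15 combinations of HTE_1, HTE_2, MTE_1 and MTE_2 that hold a peak. The high-only point (316, red) sits among the pairs of 1 high and 1 medium library (105 to 423), while the medium-only point (11715, blue) is the highest of all. Those pairs draw on the larger medium lists and are no chance level.

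The size of the single-eluate classes depended on how many peaks each library gave. With 11057 peaks from each library, high-only regions numbered 2344 and medium-only regions 1612, so their order was the opposite, and 4912 regions were found in all 4 libraries. Asking for fewer libraries also enlarged the classes. High-only regions numbered 873 without HTE_1, 640 without HTE_2, 548 without MTE_1 and 764 without MTE_2, and medium-only regions 22666 without MTE_1 and 21113 without MTE_2. In tough beef, joined in the same way, 190 of 32218 regions were high-only, 6034 medium-only and 7567 in all 4.

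Most peaks of the high eluate lay where the medium eluate also had a peak, and most medium peaks had no high counterpart. Of the peaks of HTE_1, 94.2% (93.8 to 94.6%) overlapped a peak of at least 1 MTE library and 84.8% (84.2 to 85.5%) of both. For HTE_2 these shares were 93.2% and 81.9%. In the other direction 37.1% of MTE_1 and 36.5% of MTE_2 peaks overlapped a peak of either HTE library, and 25.8% and 25.1% of both. Against the authors' lists called on the merged replicates of the other eluate, which hold many more peaks, 97.3% and 96.9% of the high peaks and 48.9% and 48.5% of the medium peaks had a counterpart. The merged MTE list thus lacked 2.66% of the HTE_1 and 3.05% of the HTE_2 peaks.

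Whether a medium peak was found in both high libraries went with its pileup, the number of tags over the summit. Peaks of each library were cut by pileup percentile into 10 bins. Ties made these unequal in size, with 2403 to 4724 peaks in MTE_1 and 2440 to 5015 in MTE_2. In the lowest bin of MTE_1 (5 to 8 tags), 2.07% overlapped a peak of both HTE libraries. This share was 11.4% at 12 tags, 37.4% at 17 to 23 tags and 87.6% in the highest bin (154 to 309 tags). MTE_2 ran from 2.13% to 85.8%. In the high libraries the share with a peak in both MTE libraries was already 75.9% and 72.7% in the lowest bin, lay between 69.3% and 75.9% in the 4 lowest bins, and reached 99.1% and 99.8% in the highest. In every bin both high libraries lay above both medium libraries. High peaks were set against the larger medium lists and medium peaks against the smaller high lists. The part of list size in this order was not tested.

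**Figure D2:**
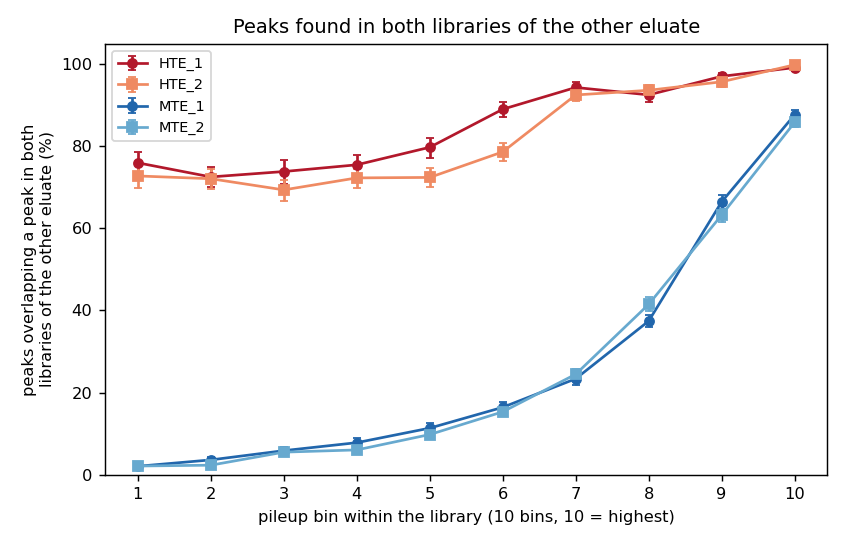
Share of the peaks of each library that overlapped a peak in both libraries of the other eluate (%, y axis, bars are Wilson 95% intervals). The x axis is the pileup bin within the library (10 bins, unequal in size because of ties). The medium libraries rise from 2.07% and 2.13% to 87.6% and 85.8%, and the high libraries start at 75.9% and 72.7%.

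Within a narrower range of pileup, the widest peaks were shared more often than the narrowest. Among MTE_1 peaks of 11 to 16 tags, 8.25% of those within 24 bp of the minimum width were found in both HTE libraries, against 36.7% of those exceeding it by 150 bp or more. In MTE_2 the shares were 6.84% and 36.1%. Peaks exceeding the minimum by 25 to 74 bp had 7.38% in MTE_1 and 7.16% in MTE_2, so the medium shares did not rise clearly below 75 bp. Pileup was not held fixed within this range. The share of MTE_1 peaks rose from 7.82% at 11 tags to 23.4% at 15 to 16 tags, and the part of pileup in the width difference was not tested. The high libraries had the same order at a higher level, 59.2% and 88.3% in HTE_1 and 56.4% and 84.8% in HTE_2.

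A library's own peaks were narrower in single-eluate regions than in regions of all 4 libraries, and more so in the medium eluate. The median HTE_1 peak was 221 bp wide in high-only regions and 287 bp in regions of all 4, and the median HTE_2 peak 266.5 and 321 bp. Medium-only peaks were 206 bp wide in MTE_1 and 195 bp in MTE_2, against 326 and 319 bp in regions of all 4. The log2 ratio of the medians was -0.38 and -0.27 for the high-only and -0.66 and -0.71 for the medium-only peaks. These widths belong to libraries that also made the classes, so they are descriptions without a test. The joined regions themselves had a median width of 291 bp when high-only (196 to 745 bp), 241 bp when medium-only (157 to 1065 bp) and 408 bp when found in all 4 (196 to 3239 bp), but a region joined from more libraries can only be wider.

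Regions of all 4 libraries were of 2 kinds by pileup. Of their peaks, between 3.14% in MTE_1 and 6.16% in HTE_2 had a pileup of 32 to 64 tags, while 41.9% to 44.8% lay below and 51.6% to 52.5% above. The upper kind was largely crowded together. Of the 8160 regions, 3995 had another region of all 4 within 2 kb and are called close-spaced here, and 4165 had none and are called isolated. The median pileup in close-spaced regions was 178 tags in HTE_1, 194 in HTE_2 and 163 in each MTE library. Since the peak caller kept 1 tag per position and strand, the pileup cannot exceed 2 times the fragment length (358, 392, 314 and 292 tags), and these medians stood at 49.5% to 55.8% of that ceiling. Their median fold enrichment over the local background was 2.57 to 2.78, against 8.36 to 9.65 in isolated regions, whose median pileup was 14 to 18 tags.

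High-only and medium-only regions had few peaks of the upper kind. A pileup of 64 tags or more was found in 6.94% and 8.23% of the high-only peaks of HTE_1 and HTE_2 and in 4.28% and 4.32% of the medium-only peaks of MTE_1 and MTE_2. Pileups are not divided by library size, so they are compared as a percentile among the peaks of the same library. High-only peaks had a median percentile of 36.8 in HTE_1 and 45.3 in HTE_2, against 58.3 and 65.6 for peaks in regions of all 4. Against isolated regions of all 4 there was no such gap, since their medians were 34.0 and 45.3. Medium-only peaks had a median percentile of 46.3 in MTE_1 and 45.7 in MTE_2, against 84.5 and 84.6 in all regions of all 4 and 70.5 and 72.5 in the isolated ones. A medium peak without a high counterpart was therefore low in its own library against either set, and a high peak without a medium counterpart was low only against the set that holds the close-spaced regions. With peaks of a fold enrichment of at least 3 alone, the mean gap between regions of all 4 and high-only regions turned from 20.9 to -7.30 percentile points, and that for medium-only regions went from 38.6 to 42.1.

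**Figure D3:**
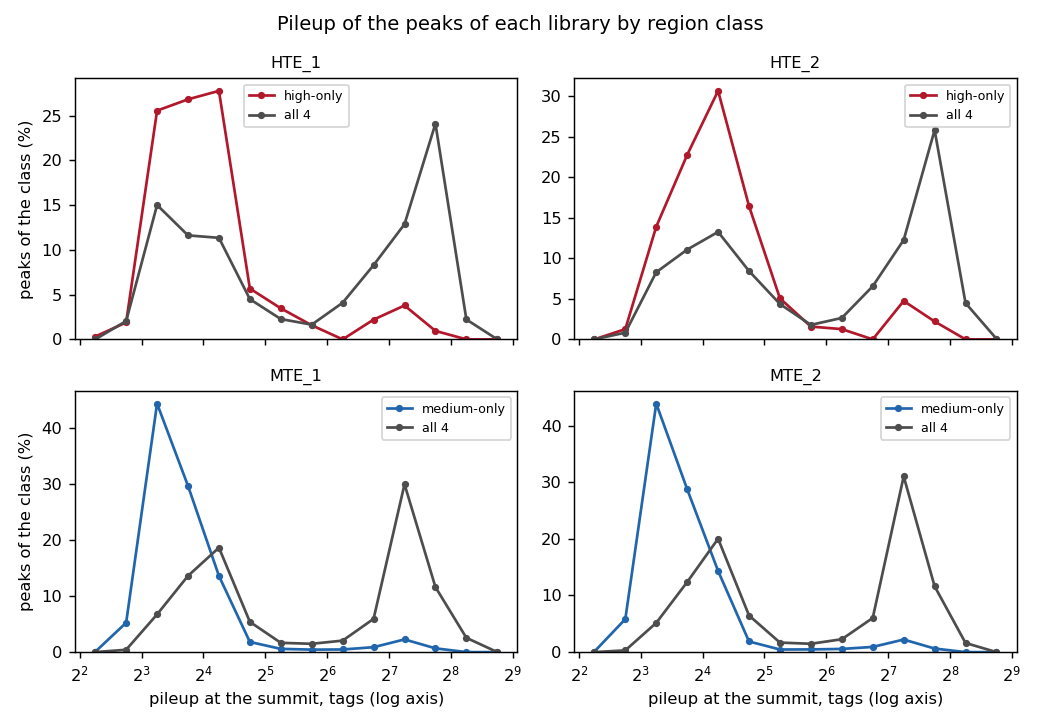
Share of a library's peaks in each region class (%, y axis) by pileup at the summit (x axis, log scale), with a panel for each library. Peaks in regions of all 4 (grey) form 2 humps with 3.14% to 6.16% of them between 32 and 64 tags, and the high-only (red) and medium-only (blue) peaks fall mainly under the lower hump.

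Where both eluates marked the same isolated place, the median medium peak was the wider of the 2 beyond the minimum width. Over 3612 isolated regions with a single peak from each library, the median width exceeded the fragment length by 92 bp in HTE_1, 119 bp in HTE_2, 168 bp in MTE_1 and 176 bp in MTE_2. The eluates did not overlap, in the direction opposite to that over all peaks. The full median widths were closer, at 271, 315, 325 and 322 bp, so much of the contrast came with the fragment length subtracted. Over pairs of 1 high and 1 medium library, the high peak was the wider in 34.1% to 50.2% of regions. After subtraction it was the wider in 22.3% to 32.1%. The median pileup there was 14 and 17 tags in the high and 17 and 18 in the medium libraries. Per 1000000 tags left it was 3.09 and 3.51 in the high and 2.58 and 2.61 in the medium libraries. Peaks began at 5 tags in each library, which per tag is a higher floor in the shallower high libraries. These regions had to pass it in all 4 libraries, so the order per 1000000 tags is not read as a difference between the eluates. Summits of the same eluate lay a median of 29 bp (HTE_1 and HTE_2) and 34 bp (MTE_1 and MTE_2) apart, and summits of different eluates 38 to 43 bp. With 2 libraries each, none of these differences can reach p = 0.05 in an exact permutation test.

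High-only regions stood in denser surroundings than medium-only regions. Their median distance to the nearest region of all 4 was 29566 bp, against 97805 bp for medium-only regions. To the nearest region of any class it was 1784.5 bp against 7069 bp, and 53.8% of high-only but 27.2% of medium-only regions had another region within 2 kb, beside 34.7% of all regions. The neighbour was most often a region of medium peaks alone, for 60.8% (55.3 to 66.0%) of high-only and 74.3% (73.5 to 75.04%) of medium-only regions, while it was a region of high peaks alone for 9.81% (6.997 to 13.6%) and 2.04% (1.80 to 2.31%). Of all regions 69.04% held medium peaks alone and 2.51% high peaks alone, so the medium-only values lay near the make-up of the whole set. A close-spaced region lay within 2 kb of 15 of 316 high-only regions (4.75%) and 428 of 11715 medium-only regions (3.65%). The share over all regions was not computed for this measure. Without HTE_1 the medium-only distance to regions of all 4 fell to 54905 bp and the high-only distance was 20105 bp. With 11057 peaks per library both distances grew, to 95454 and 224628 bp, and kept their order.

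The high-only regions were gathered near the distal chromosome ends. Bovine autosomes are acrocentric, with the centromere beside the start of the sequence, and subtelomeric DNA is commonly rich in CpG and in genes. Chromosome lengths were not used, and the distal end was set at the last base of any peak of the 12 libraries. The last 2 Mb of the 29 chromosomes, 2.31% of the length spanned, held 12.3% of all regions (5642 of 45968). They held 122 of the 316 high-only regions (38.6%, 33.4 to 44.1%) and 1294 of the 11715 medium-only regions (11.05%, 10.5 to 11.6%). Isolated regions of all 4 had 14.8% there (13.7 to 15.9%) and close-spaced ones 1.55% (1.21 to 1.98%). The high-only share was thus above that of all regions, and the medium-only share just under it.

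The excess of high-only regions reached inwards from the end and had no mirror at the start. The last 1 Mb held 21.2% of high-only and 5.67% of medium-only regions, and the last 5 Mb 57.0% and 22.9%. The first 2 Mb held 3.80% (2.19 to 6.52%) and 3.63% (3.30 to 3.98%), beside 3.68% of all regions. The share in the last 2 Mb was higher in high-only than in medium-only regions on 22 of the 29 chromosomes, and the 7 others had no high-only region there. Regions of a single high library gave shares of 27.2% for HTE_1 and 36.8% for HTE_2, and those of MTE_1 or MTE_2 alone had 11.6% and 12.5%. Regions with both kinds of peak, short of all 4, lay above 12.3% too where high peaks were as many as medium peaks or more. The share was 30.9% for both high libraries with MTE_1 and 28.0% for both with MTE_2, and 20.8% to 28.6% for the pairs of 1 high and 1 medium library, while both medium libraries with 1 high library had 11.2% and 12.1%. The distal excess was thus not limited to regions without a medium peak. The tough libraries, joined on their own, gave 44.7% (37.8 to 51.8%) of 190 high-only and 11.1% (10.3 to 11.9%) of 6034 medium-only regions. With 11057 peaks from each tender library the shares were 21.7% and 8.68%.

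**Figure D4:**
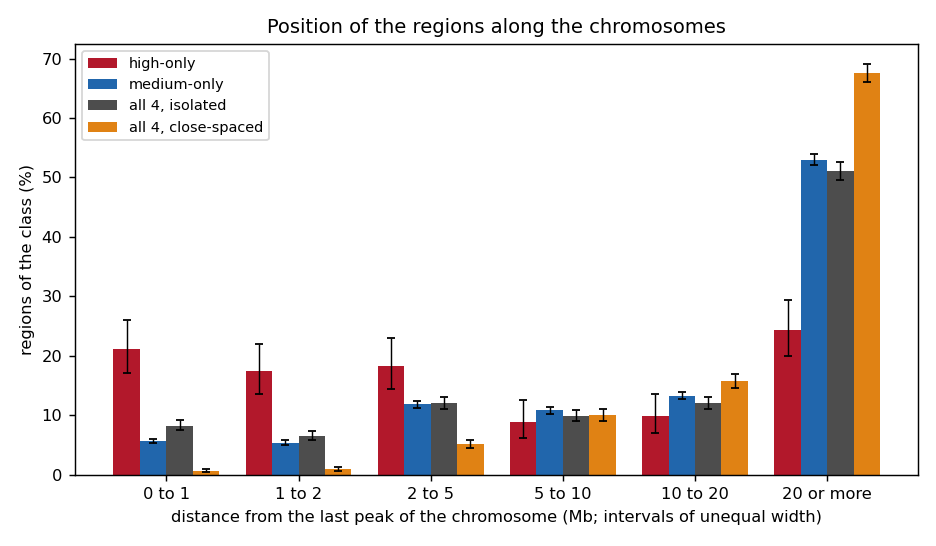
Share of the regions of a class (%, y axis, bars are Wilson 95% intervals) by distance from the last peak of the chromosome (x axis, intervals of unequal width). High-only regions have 21.2% in the last 1 Mb, medium-only regions 5.67% and close-spaced regions of all 4 only 0.626%.

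Counted over the whole peak lists the distal difference between the eluates was small. Of the peaks of HTE_1, HTE_2, MTE_1 and MTE_2, 11.6%, 13.1%, 10.9% and 11.4% lay in the last 2 Mb. Over the 4 libraries of each eluate the shares were 11.7% and 11.1% and overlapped (exact permutation p = 0.429, adjusted p = 0.429). Peaks within 2 kb of a close-spaced region made up 40.6% and 33.6% of the high but 14.8% and 14.8% of the medium lists. Without them the distal share was 18.5% and 19.02% in the high and 12.6% and 13.1% in the medium libraries. The tough libraries, with the same regions set aside, had 16.6% and 17.1% against 14.0% and 13.2%, and over 4 against 4 libraries the means were 17.8% and 13.2% (exact permutation p = 0.0286, adjusted p = 0.0357). This measure was chosen after the values were seen, so its p-value gives no support. The close-spaced regions were defined on the same tender libraries and had only 1.55% in the last 2 Mb. Peaks near them made up more of the high lists, so leaving them out raises the high share more.

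Proximity to dense surroundings and distal position went together only in part. Outside the last 2 Mb the median distance to a region of all 4 was 34262 bp for 194 high-only and 116544 bp for 10421 medium-only regions. Inside it was 24583.5 and 33099.5 bp.

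By chromosome, the share of a library's peaks was higher in both high libraries on 10 of 29 chromosomes (34.5%), higher in both medium libraries on 17 (58.6%) and overlapped on 2. The highest ratios of high to medium share were on chromosome 27, with 5.54% and 5.08% of the high against 3.64% and 3.64% of the medium peaks, and on chromosome 8, with 7.09% and 6.41% against 4.70% and 4.61%. Chromosomes 8 and 27 also held the most close-spaced regions, 499 and 365 of 3995. Without peaks within 2 kb of close-spaced regions, 10 chromosomes were higher in the high eluate, 10 in the medium eluate and 9 overlapped. The call was the same on 13 chromosomes and turned on 6, which were chromosomes 1, 7, 12, 17, 20 and 23. Chromosome 25 was higher in the high eluate both ways, with 4.04% and 4.19% against 3.54% and 3.66% of all peaks. With 11057 peaks per library 17 chromosomes were separated. Chromosomes 8 and 27 fall outside the rule for naming chromosomes and were picked with their values in view.

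The ratio of high-only to medium-only regions was highest on chromosomes 25, 6 and 29. Chromosome 25 held 24 high-only and 368 medium-only regions (6.52 per 100), chromosome 6 held 20 and 365 (5.48 per 100) and chromosome 29 held 18 and 370 (4.86 per 100). The lowest ratios were on chromosome 15 with 3 and 365 regions (0.822 per 100), chromosome 13 with 4 and 486 (0.823 per 100) and chromosome 28 with 2 and 219 (0.913 per 100). Counts of 2 to 4 regions leave these low ratios uncertain. On chromosome 25, a short and gene-rich chromosome, 6 of the 24 high-only regions lay in the last 2 Mb, on chromosome 6 it was 2 of 20 and on chromosome 29 it was 5 of 18. Without chromosome 25 the distal shares were 39.7% and 11.1%.

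The libraries of tough beef and of the low eluate took no part in making the classes. A peak of HTO_1 was present at 57.9% (52.4 to 63.2%) of the high-only regions and a peak of HTO_2 at 76.3% (71.3 to 80.6%), where 21.2% and 24.8% of all regions had a peak of these libraries. Peaks of MTO_1 and MTO_2 were present at 44.6% and 43.4% of high-only regions, beside 45.1% and 46.5% of all regions. The tough high libraries thus held high-only regions above the level of all regions, most of which have no high peak, and the tough medium libraries held them near that level. Isolated regions of all 4 had higher shares in each, 78.7% and 87.3% in the HTO and 94.6% and 94.2% in the MTO libraries. Medium-only regions had the opposite order, with 5.06% and 9.36% in HTO_1 and HTO_2 and 46.8% and 49.6% in MTO_1 and MTO_2. Against all regions, the medium-only class was low in the HTO libraries and near the background of 45.1% and 46.5% in the MTO libraries. That background includes the regions of all 4, which had 86.4% and 90.3% in the HTO and 96.9% and 96.6% in the MTO libraries. It thus lies above the level of the other regions, for which no separate background was computed. Since the medium-only shares in both MTO libraries exceeded even this background, they also lay above the level of the regions outside all 4. For the HTO libraries these values do not tell whether the medium-only shares lay below that level.

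The mean difference between same-numbered tough libraries was 23.1 percentage points in favour of the high eluate for high-only regions and 41.003 points in favour of the medium eluate for medium-only regions. The high-only difference depended on the choice of regions. It was -3.11 points with 11057 peaks per tender library, -0.73 points with the merged lists, and 2.98, 6.72, 13.9 and 9.62 points without HTE_1, HTE_2, MTE_1 and MTE_2. The medium-only difference remained positive in these settings, from 10.7 points with the merged lists to 58.3 points with equal numbers of peaks.

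The low eluate rarely had a peak at high-only regions. Of the 316 high-only regions, 4 had a peak in LTE_1 (1.27%, 0.493 to 3.21%) and 3 in LTE_2 (0.949%, 0.323 to 2.75%), where 15.3% and 22.2% of all regions had one. The lists of LTE_1 and LTE_2 held 9555 and 16881 peaks. Medium-only regions had a peak of LTE_1 in 14.1% and of LTE_2 in 24.1%, and isolated regions of all 4 in 24.4% and 30.8%. The medium-only shares were close to the backgrounds over all regions. Those backgrounds include the regions of all 4, which had 46.25% in LTE_1 and 54.5% in LTE_2. They thus lie above the level of the other regions, and closeness to them does not place the medium-only class among those. In tough beef LTO_1 and LTO_2 had a peak at 6.01% and 2.53% of high-only and at 41.3% and 47.1% of medium-only regions, beside 35.4% and 38.4% of all regions. The high-only regions were below the background in each of the 4 low libraries.

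**Figure D5:**
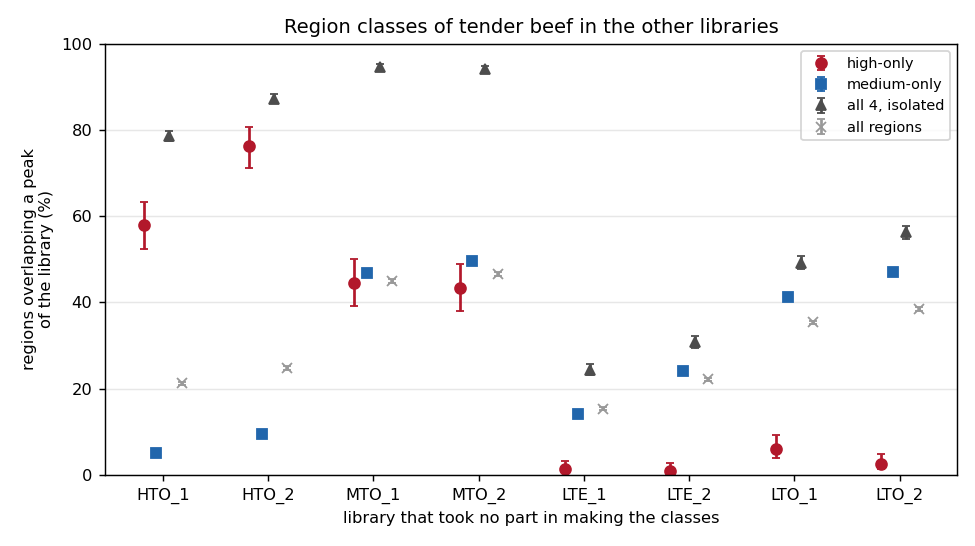
Share of the regions of a class (%, y axis, bars are Wilson 95% intervals) that overlapped a peak of each library not used to make the classes (x axis). High-only regions stand at 57.9% and 76.3% in the HTO libraries and at 0.949% to 6.01% in the low libraries. Medium-only regions stand at 5.06% and 9.36% in the HTO libraries and at 14.1% to 49.6% elsewhere, where all regions stand at 15.3% to 46.5%.

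Agreement of all 4 tough libraries on the class was rarer. Of the high-only regions 62 (19.6%, 15.6 to 24.4%) had a peak in both HTO and in neither MTO library, 7 had the reverse, 66 had a peak in all 4 tough libraries and 29 in none. Of the medium-only regions 2766 (23.6%, 22.9 to 24.4%) had a peak in both MTO and in neither HTO library and 5 the reverse, while 4028 (34.4%) had none. The shares of these tough patterns over all regions were not computed. The counts therefore do not tell whether either class kept its pattern more often than regions in general. The merged list of the other eluate had a peak at 185 (58.5%) of the high-only and 3334 (28.5%) of the medium-only regions, beside 98.1% of all regions with a merged MTE peak and 41.5% with a merged HTE peak. The merged lists differ from the single lists both in pooled reads and in the MACS2 version. The 131 high-only regions without a merged MTE peak had 42.7% (34.6 to 51.3%) in the last 2 Mb, and the 185 with one 35.7% (29.1 to 42.8%).

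The high-only regions of highest pileup percentile resembled the close-spaced kind in pileup and fold enrichment. At chr6:7017976-7018188 (213 bp, bosTau8) HTE_1 and HTE_2 piled up 199 and 211 tags, at fold enrichments of 2.02 and 1.92, and the next region was 69 bp away. At chr6:17962325-17962587 the pileups were 198 and 207 tags at fold enrichments of 2.04 and 1.89, with the next region 333 bp away. At chr16:63175035-63175300 they were 196 and 199 tags at 1.93 and 1.73, but the next region was 2245 bp away, beyond 2 kb. The merged MTE list had a peak at each of these 3 regions, and so did both MTO libraries. The widest high-only region, chr24:871647-872391, was 745 bp wide and of the other kind, with 22 and 17 tags at fold enrichments of 11.1 and 8.66, its HTE_1 peak spanning 745 bp and its HTE_2 peak 319 bp. It lay 61.8 Mb from the distal end.

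The medium-only regions of highest pileup percentile were narrow, and each lay within 368 bp of another region. At chr29:30346683-30346892 (210 bp) MTE_1 and MTE_2 had 245 and 236 tags at fold enrichments of 1.91 and 1.98, and the 4 low and both MTO libraries had a peak as well. The regions chr6:89217572-89217738 (167 bp, 243 and 237 tags) and chr7:56585643-56585816 (174 bp, 245 and 232 tags) had fold enrichments of 1.83 to 1.87. None of these 3 had a merged HTE peak, but HTO_1 had a peak at the region on chromosome 7. The widest medium-only region, chr3:25704018-25705082, spanned 1065 bp from 2 MTE_1 peaks and 1 MTE_2 peak of 676 bp, with 18 and 14 tags at fold enrichments of 9.48 and 8.90. It stood alone, 104699 bp from the next region, and the merged HTE list had a peak there.

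In regions of all 4 the highest pileups came close to the ceiling. At chr24:56942803-56943387 (585 bp) they were 355, 385, 297 and 284 tags in HTE_1, HTE_2, MTE_1 and MTE_2, at fold enrichments of 1.80 to 2.04. The isolated region chr2:70592761-70595012 (2252 bp) had 348, 386, 309 and 288 tags at 5.65 to 7.17, with peaks of 2192 to 2252 bp in every library and no other region within 73280 bp. The region chr11:107284445-107285804 (1360 bp) had 342, 373, 296 and 279 tags at 4.46 to 5.63. The widest region of all, chr11:13096421-13099659, spanned 3239 bp, which MTE_1 covered with a single peak of 3150 bp while HTE_1 and HTE_2 had 2 peaks each and MTE_2 had 4. All 8 other libraries had a peak at each of these 4 regions. Genes and CpG islands at the named places were not analysed here.

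A stricter set held the regions that kept their class in tough beef and had no merged peak of the other eluate. It was made after the values were seen, and it left 35 high-only and 1595 medium-only regions. Of these, 16 of 35 (45.7%, 30.5 to 61.8%) and 163 of 1595 (10.2%, 8.83 to 11.8%) lay in the last 2 Mb. The high-only region of this set with the highest lowest fold enrichment, chr5:118296967-118297242 (276 bp), had 21 and 22 tags in HTE_1 and HTE_2 at fold enrichments of 10.7 and 9.54, and 20 and 21 tags in HTO_1 and HTO_2 at 11.5 and 10.4. No medium or low library had a peak there. The medium-only counterpart, chr24:54949241-54949562 (322 bp), had 31 and 27 tags in MTE_1 and MTE_2 at fold enrichments of 17.8 and 17.8, and 12 and 14 tags in MTO_1 and MTO_2 at 9.04 and 10.7. All 4 low libraries had a peak there.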

How the data were processed

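MBD-seq libraries of the high and medium methylated eluates of tender beef were analysed, with the 8 other libraries used for comparison. The authors aligned reads to bosTau8 (BWA 0.7.7 per the submitters' processing notes), kept unique reads and called peaks without input DNA as control. Per the file headers, MACS2 2.1.1.20160309 (2.1.0.20150731 for merged replicates) ran at a q-value of 0.01 with a regional background of 10000 bp and 1 tag per position. The deposited lists give pileup, a signal in tags not divided by library size, fold enrichment, which is the authors' ratio over local background, and the −log10 of the p-value and q-value, also deposited by the authors. Tags left per library were 4526538 to 6886676 in the 4 libraries compared.

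Overlap, distance and joining used scipy 1.17.1, pandas 2.3.3 and numpy 2.4.6 under Python 3.11.15, were checked against bedtools 2.31.1 and were tested on simulated data with planted regions. Chromosomes X and M were set aside, and of the merged lists only HTE and MTE were used. Exact permutation tests over libraries, two-sided, compared the measures per library, with Benjamini-Hochberg adjustment over 5 measures, and class values are descriptions. Named regions are, per class, the 3 whose lowest pileup percentile is highest and the widest, and named chromosomes the 3 highest and 3 lowest ratios of high-only to medium-only regions. Members, classes and measures were chosen with earlier results of these data known. Alternatives covered q-value and fold enrichment limits, overlap, joining distance, equal numbers of peaks, chromosomes X and M, merged lists, left-out libraries and replicate pairs. Genes, sequence and CpG content were not analysed here, since the gene table at hand is of another build.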

Additional observations from a re-analysis of the deposited data

Results flagged for a closer look

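Chromosomes X and M were outside the comparison, and both held peaks above the limit that a count of 0 allows. Joining the 4 libraries gave 1206 regions on chromosome X, of which 7 were high-only, 274 medium-only, 309 in all 4 and 616 mixed, so the order of the classes was that of the autosomes except that regions of all 4 outnumbered medium-only ones. The mitochondrial genome gave 4 regions, 2 of them in all 4 libraries and none high-only or medium-only. No group holds 4 samples, so no library was tested as standing apart from its group.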

How the results depend on the processing

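Limits on −log10 q of at least 3, 50% overlap and adding chromosomes X and M moved no value beyond its spread. In what follows, gap means the median pileup percentile of a library's peaks in regions of all 4 minus that in the class, averaged over libraries. Width means the log2 ratio to regions of all 4, distance that to the nearest region of all 4, and tough difference the one between same-numbered tough libraries. Each is given for high-only and then medium-only regions. With −log10 q of at least 5 the gaps were 22.1 and 41.5, the medium-only distance 112246 bp and its distal share 10.3%. With fold enrichment of at least 3 there were 489 high-only regions and 5328 of all 4, widths of -0.18 and -0.79, gaps of -7.30 and 42.1, distances of 15815 and 107551 bp and a high-only distal share of 25.4%. Joining peaks up to 500 bp apart gave gaps of 23.1 and 46.0, a medium-only width of -0.61 and distance of 104502 bp.

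With equal numbers of peaks there were 2344, 1612 and 4912 regions (high-only, medium-only and all 4), gaps of 23.6 and 41.8, distances of 95454 and 224628 bp, tough differences of -3.11 and 58.3, distal shares of 21.7% and 8.68%, 17 chromosomes separated and a log2 width ratio between eluates of 0.025. By construction these lists drop the weaker medium peaks. The merged lists, with no replicates, gave 1161, 64784 and 19017 regions, gaps of 16.04 and 44.0, a medium-only width of -0.84, distances of 7486 and 41776.5 bp, tough differences of -0.73 and 10.7 and distal shares of 29.3% and 8.80%. They allow no call by chromosome, and the joining rules do not enter the chromosome shares. The cause of the reversed gap and tough differences was not tested.

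Replicate numbers are not stated to pair the eluates, and the deviations of same-numbered libraries had correlations of -0.01 over 45968 regions and -0.24 over 29 chromosomes. With the replicate block, joining each pair alone, there were on average 1373 high-only and 23841 medium-only regions, gaps of 23.7 and 42.4, distances of 17421 and 63413.2 bp, tough differences of -3.55 and 30.6 and distal shares of 31.6% and 11.7%, while peaks and width per library kept their direction (log2 1.54 and -0.39). Crossed pairs gave 1379 and 23861 regions.

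Leaving out each library gave 548 to 873 high-only, 12737 to 22666 medium-only and 8378 to 10376 regions of all 4, widths of -0.44 to -0.28 and -0.84 to -0.58, gaps of 21.6 to 24.6 and 34.2 to 45.6, distances of 20105 to 22286 and 54905 to 98637 bp, tough differences of 2.98 to 13.9 and 29.1 to 42.0, and distal shares of 32.5% to 37.2% and 11.1% to 11.8%. Chosen after seeing the data were distal windows of 1 Mb (21.2% and 5.67%) and 5 Mb (57.0% and 22.9%), isolated regions as the comparison set (gaps of -1.40 and 25.5), and the tough libraries added (log2 medium over high 1.35 for peaks and -0.32 for width, exact permutation p = 0.0286 each). The high-only distal share exceeded the medium-only share, and the high-only distance was the shorter, in each setting for which both were recomputed, which leaves out the crossed pairs. Of 212 recomputed values 120 were counted as unchanged, 84 as moved, 6 as turned in direction and 2 as stronger. For class and chromosome values, unchanged meant within the spread of the value reported (counts within 1.5 times). For peaks and width per library it meant only the same direction and test outcome. With at most 2 libraries of each eluate the exact permutation test cannot go below p = 0.333. Only a turn in direction could therefore change those labels, and they do not show stability. Depth limits the absence of a peak, which says only that a library of this depth did not call the place.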
